A study of Homo sapiens with 18 samples.

Results

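Immune checkpoint ligands are surface or secreted proteins with which a cell restrains lymphocytes or phagocytes. Their transcripts were followed here in 2 established human lung cancer cell lines, A549 and H1299. The 9 genes were CD274, PDCD1LG2, CD276, VTCN1, PVR, PVRL2, LGALS9, CD47 and NT5E, taken by symbol from a table of 57773 genes. Every symbol was found once. In each line, cells with shPPP2R2A-1 or shPPP2R2A-2, hairpins against PPP2R2A, were set beside cells with the control hairpin shcon, and each of the 6 groups had 3 libraries of bulk RNA-Seq. PPP2R2A is a regulatory B subunit of protein phosphatase 2A, and the study asked how its loss bears on PD-L1 in non-small cell lung cancer. All cells grew in the same serum-supplemented medium, with no immune cells added. The labels number the libraries as repeats without saying that they came from separate cultures, so the spread behind each p-value may be technical only. In bulk RNA a change in the share of cells that carry a transcript and a change in RNA per cell cannot be told apart.

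PD-L1 (CD274) and PD-L2 (PDCD1LG2) bind PD-1 on activated T cells and dampen signaling from the antigen receptor. Interferon from T cells induces both genes through JAK kinases and IRF1, and they lie side by side on the short arm of chromosome 9. B7-H3 (CD276) and B7-H4 (VTCN1) are further members of the B7 family. The poliovirus receptor (PVR, CD155) and nectin-2 (PVRL2, CD112) bind the inhibitory receptor TIGIT and the activating receptor CD226. Nectin-2 also binds the inhibitory receptor PVRIG. Galectin-9 (LGALS9) is a ligand of TIM-3, CD47 is the "don't eat me" signal read by SIRPα on macrophages, and NT5E encodes CD73, an ectoenzyme that makes immunosuppressive adenosine from AMP.

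Totals per library were 40.9 to 60.2 M counts in A549 and 35.7 to 69.3 M in H1299. Levels are given as CPM, the count of a gene relative to the library total after TMM scaling over all 18 libraries. PPP2R2A itself was measured first. In A549 it stood at 84.2, 48.7 and 86.2 CPM with shcon, at 9.27, 11.2 and 7.36 with shPPP2R2A-1 and at 10.6, 13.1 and 15.4 with shPPP2R2A-2. In H1299 the values were 104, 73.7 and 84.7 with shcon, 7.32, 9.82 and 6.51 with shPPP2R2A-1 and 18.1, 17.7 and 14.5 with shPPP2R2A-2. The knockdown libraries lay below every control library in both lines. In H1299 shPPP2R2A-2 left more PPP2R2A RNA than shPPP2R2A-1, by 1.08 ± 0.21 on the log2 scale (SE, adjusted p = 0.0073).

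One library stood apart from its label. A549 cells lack CDKN2A, CDKN2B and MTAP through a deletion, and 8 A549 libraries held 0 counts of CDKN2A and CDKN2B and at most 5 of MTAP. The A549 shPPP2R2A-2 replicate 1 library held 57 counts of CDKN2A, 25 of CDKN2B and 110 of MTAP, which was 2.89%, 3.15% and 2.92% of the mean level in the H1299 shPPP2R2A-2 libraries. At the highest of these shares, H1299 shPPP2R2A-2 levels would amount to 0.686 CPM of CD274 and 0.41 CPM of PDCD1LG2, against 3.35 and 0.952 CPM counted in that library. For NT5E the same share was 26.1 CPM against 30.9 CPM counted, and for VTCN1 and LGALS9 it was 0. Each member's call that rests on this group is therefore given with and without that library. The epithelial keratins KRT8 and KRT18 had shcon means of 5520 and 4230 CPM in A549 and of 174 and 468 CPM in H1299. Other epithelial markers were near 0 in H1299. KRT19 and EPCAM had shcon means of 245 and 6.74 CPM in A549 and of 0.0854 and 0.13 CPM in H1299. E-cadherin (CDH1) was at 35.4 to 113 CPM in A549 and at 0 to 0.0409 CPM in H1299. Of 16 leukocyte markers, CD3D and TYROBP were at 0 in all 18 libraries and PTPRC reached at most 6 counts. Others were present, with CD14 at 5.93, 14.6 and 9.94 CPM in A549 shcon. ITGAM had group means from 2.46 CPM (A549 shPPP2R2A-1) to 4.06 CPM (H1299 shPPP2R2A-1). The summed level of the leukocyte markers was 10.3 to 18.9 CPM in A549 shcon, 7.23 to 9.47 with shPPP2R2A-1 and 9.70 to 10.8 with shPPP2R2A-2, and it lay between 3.21 and 5.00 CPM in H1299.

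**Figure D1:**
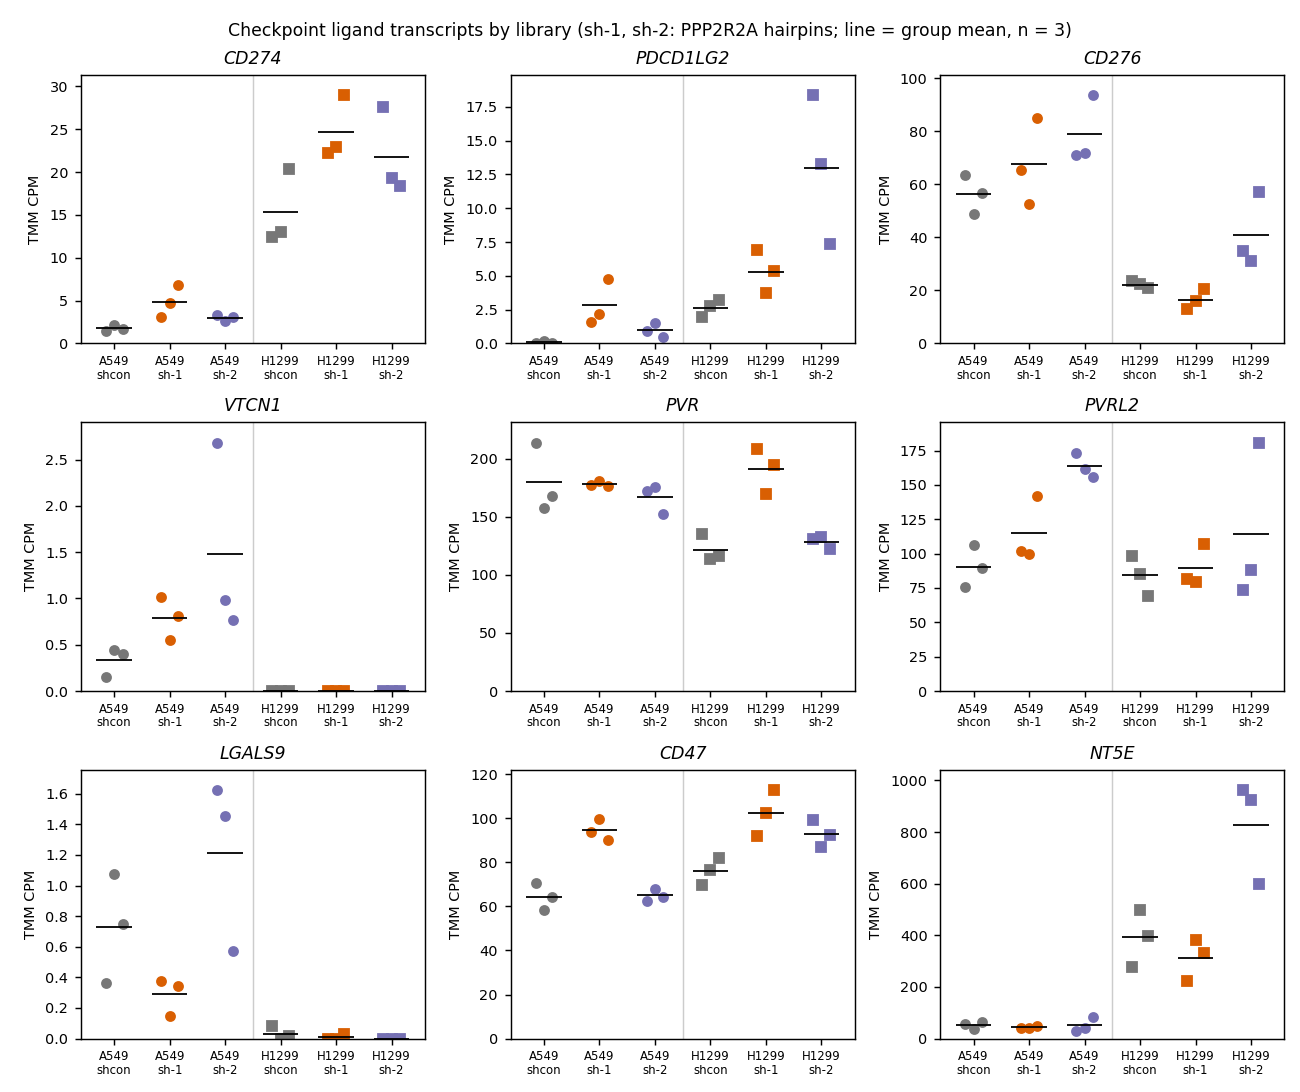
TMM-scaled CPM (y axes, linear from 0) of the 9 ligands in each of the 18 libraries, grouped by line and hairpin on the x axes, with circles for A549, squares for H1299 and a black line at each group mean. CD274 in the H1299 libraries lies between 12.4 and 29 CPM, above all A549 libraries, and VTCN1 is at 0 in every H1299 library.

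The lines differed in which ligands they expressed. Set per kilobase of exon, so that genes can be ordered, the A549 shcon libraries had PVR at the top (51.1 ± 8.49 CPM per kb, SD, n = 3), followed by PVRL2 (24.1 ± 4.14), NT5E (11.6 ± 2.94), CD276 (10.2 ± 1.30) and CD47 (7.84 ± 0.747). NT5E and CD276 did not differ beyond their spread. CD274 followed at 0.437 ± 0.0843 CPM per kb, and LGALS9, VTCN1 and PDCD1LG2 were lower still, at 0.127, 0.109 and 0.0334. The H1299 shcon libraries were led by NT5E (86.5 ± 24.3 CPM per kb), followed by PVR (34.6 ± 3.38), PVRL2 (22.5 ± 3.92) and CD47 (9.25 ± 0.766). CD276 (4.01 ± 0.242) and CD274 (3.72 ± 1.08) came next and did not differ beyond their spread, and PDCD1LG2 was at 1.11 ± 0.277.

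**Figure D2:**
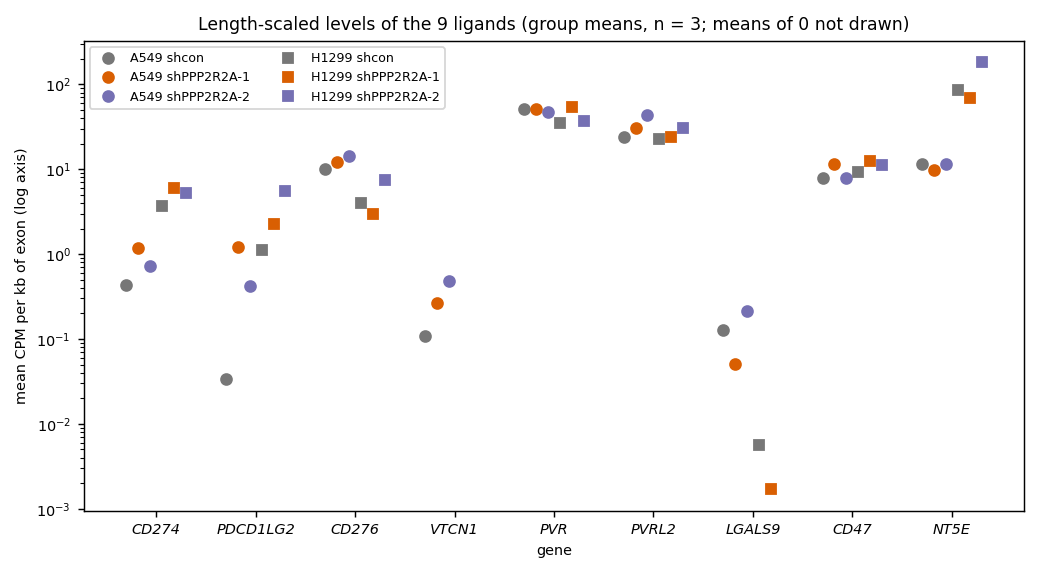
Group means (n = 3) of CPM per kilobase of exon on a log axis for the 9 ligands, with circles for A549 and squares for H1299. PVR and PVRL2 lie between 22.5 and 54.3 CPM per kb in all 6 groups, whereas the means of NT5E, CD274, CD276, VTCN1 and LGALS9 separate the lines. Means of 0 are not drawn.

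Between the shcon groups, 4 of the 6 members that reached the count minimum of the test in both lines differed, 2 higher and 2 lower in A549. Of the 14616 genes that reached it in both, 24.7% were higher and 25.8% lower in A549. Over all 18827 genes tested 56% differed, so that a difference between the lines was the usual outcome for a gene. CD274 was lower in A549, with a log2 difference of -3.09 ± 0.30 (adjusted p = 8.21e-08), as was NT5E at -2.90 ± 0.34 (adjusted p = 1.06e-06). CD276 was higher in A549 by 1.34 ± 0.24 (adjusted p = 0.000105) and PVR by 0.56 ± 0.15 (adjusted p = 0.00294). PDCD1LG2, VTCN1 and LGALS9 reached the minimum in the shcon libraries of 1 line only and are described by their counts. PDCD1LG2 had 12 counts over the A549 shcon libraries and 443 over the H1299 shcon libraries, which makes it 35.6-fold higher in H1299 (95% exact interval 20.2 to 69.3, for counting error only). VTCN1 had 54 counts over the A549 shcon libraries and 0 over the H1299 shcon libraries, which makes it at least 18.7-fold higher in A549 against a floor of 3 counts over the group. LGALS9 had 118 against 5 counts, a ratio of 24.5 (10.2 to 76.9). CD47 differed by -0.24 on the log2 scale (95% interval -0.53 to 0.05) and PVRL2 by 0.10 (-0.45 to 0.66), and neither passed the test.

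On knockdown the calls among these genes were all increases. The 4 comparisons with shcon share their control libraries within a line, and the p-values were adjusted over all genes of a line. In A549, 3 of 9 members were called higher with shPPP2R2A-1 (CD274, CD47 and PDCD1LG2), where 7.34% of 17229 genes rose and 6.34% fell. With shPPP2R2A-2, 3 of 9 members were called higher (PVRL2, VTCN1 and PDCD1LG2), where 10.6% of genes rose and 9.94% fell. PDCD1LG2 entered the A549 test only through the knockdown groups, since no shcon library reached the count minimum there. Of the 8 members that reached it in shcon and knockdown libraries alike, 2 rose with each hairpin. Among all genes that did so, 6.69% rose with shPPP2R2A-1 and 9.93% with shPPP2R2A-2. In H1299, 7 members had enough counts to be tested. Of these 7, PVR rose with shPPP2R2A-1, where 0.808% of 15972 genes rose and 1.93% fell, and PDCD1LG2 rose with shPPP2R2A-2, where 1.37% rose and 1.72% fell. Without the library that stood apart VTCN1 was no longer called with shPPP2R2A-2 in A549. The count of members called lower was 0 in each of the 4 comparisons by edgeR and by DESeq2, and at an unadjusted p under 0.05 only LGALS9 in A549 shPPP2R2A-1 was lower. The median log2 fold changes of the tested members were 0.34 and 0.75 in A549 and 0.38 and 0.45 in H1299, for shPPP2R2A-1 and shPPP2R2A-2 in that order, beside medians over all genes of -0.02, -0.01, -0.04 and -0.01. Since PDCD1LG2 is among them, the A549 counts and medians over 9 members are descriptions.

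**Figure D3:**
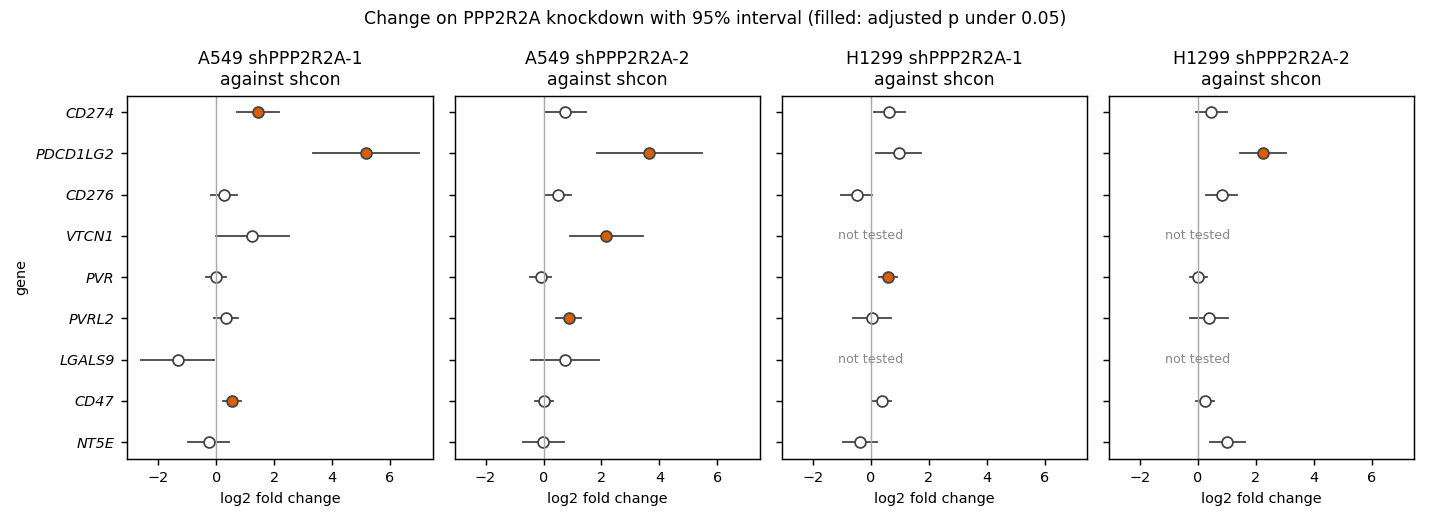
Log2 fold change against shcon (x axes) with its 95% interval for each ligand in the 4 comparisons, filled where the adjusted p was under 0.05. PDCD1LG2 has the highest point in 4 of 4 panels, from 0.96 to 5.16, and VTCN1 and LGALS9 were not tested in H1299.

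CD274, the gene of PD-L1, was at 1.48, 2.17 and 1.74 CPM in A549 shcon, at 3.10, 4.71 and 6.77 with shPPP2R2A-1 and at 3.35, 2.59 and 3.05 with shPPP2R2A-2. All 6 knockdown libraries lay above the 3 controls. The increase passed the test with shPPP2R2A-1, at 1.43 ± 0.33 on the log2 scale (adjusted p = 0.0167), but not with shPPP2R2A-2, at 0.75 ± 0.33 (adjusted p = 0.126). Without A549 shcon replicate 3 the first change was 1.40 (adjusted p = 0.0654), and without A549 shPPP2R2A-1 replicate 3 it was 1.10 (adjusted p = 0.0595). Without the A549 shPPP2R2A-2 replicate 1 library the second change was 0.67 (adjusted p = 0.292). H1299 had 12.4, 13.0 and 20.4 CPM with shcon, 22.2, 23.0 and 29 with shPPP2R2A-1 and 27.6, 19.3 and 18.4 with shPPP2R2A-2. The shPPP2R2A-1 libraries lay above all controls, whereas the shPPP2R2A-2 libraries overlapped them. Neither change passed the test, at 0.64 ± 0.24 (95% interval 0.11 to 1.17, adjusted p = 0.176) and 0.45 ± 0.24 (-0.08 to 0.98, adjusted p = 0.356). The mean over the 6 groups ran from A549 shcon (1.80 CPM) through A549 shPPP2R2A-2 (3.0), A549 shPPP2R2A-1 (4.86), H1299 shcon (15.3) and H1299 shPPP2R2A-2 (21.8) to H1299 shPPP2R2A-1 (24.7). The only neighbours in that order without shared values were A549 shcon and A549 shPPP2R2A-2, and A549 shPPP2R2A-1 and H1299 shcon.

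The stretch before the CD274 start is shown because the JAK-STAT-IRF axis acts there. It holds the 250 bases upstream of the RefSeq start in GRCh38.p14, 5′ to 3′ on the plus strand. Capitals mark matches to the interferon-regulatory-factor motif GAAANNGAA, which read on the opposite strand and overlap each other, to the STAT motif TTCNNNGAA and to the NF-kB motif GGNNTTTCC, again on the opposite strand.
CD274 promoter, chr9:5450292-5450541: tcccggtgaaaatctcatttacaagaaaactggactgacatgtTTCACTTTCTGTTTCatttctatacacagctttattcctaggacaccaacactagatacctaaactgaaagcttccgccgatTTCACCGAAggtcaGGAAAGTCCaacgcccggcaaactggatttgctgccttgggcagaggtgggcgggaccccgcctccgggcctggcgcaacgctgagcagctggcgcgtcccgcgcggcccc
The IRF matches begin 207 and 201 bases before the start, the STAT match 125 and the NF-kB match 111 bases before it. Over both strands, the IRF motif was present in 6.88%, the STAT motif in 6.57% and the NF-kB motif in 5.48% of 35116 promoter windows of this length. The windows of PVR, PVRL2, LGALS9, CD47 and NT5E held none of these, and those of CD276 and VTCN1 held 1 NF-kB match each. The AP-1 motif TGANTCA, present in 6.57% of windows, was in none of the members' windows. PDCD1LG2 was not among the 8 members matched. A match is a description of letters and says nothing of binding in these cells.

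PDCD1LG2, the gene of PD-L2, had the largest fold changes among the members in all 4 comparisons with shcon. The A549 shcon libraries held 3, 9 and 0 counts (0.0644, 0.173 and 0 CPM). The level was 1.62, 2.16 and 4.76 CPM with shPPP2R2A-1 and 0.952, 1.54 and 0.482 CPM with shPPP2R2A-2. Every knockdown library was above every control, and the hairpin groups did not overlap each other. The fitted changes, 5.16 and 3.66 on the log2 scale, depend on very few control counts and are given as a description with no test, because the gene passed the filter only through the groups where it was high. The ratio of summed counts was 36.7 (95% exact interval 20.8 to 71.7) with shPPP2R2A-1 and 13.2 (7.31 to 26.2) with shPPP2R2A-2, for counting error only. Without the A549 shPPP2R2A-2 replicate 1 library the latter fitted change was 3.71. In H1299 the values were 1.92, 2.74 and 3.22 CPM with shcon, 6.89, 3.73 and 5.33 with shPPP2R2A-1 and 18.4, 13.3 and 7.39 with shPPP2R2A-2. Again no knockdown library overlapped the controls. The change with shPPP2R2A-2 was 2.25 ± 0.36 (adjusted p = 0.013) and became 2.29 (adjusted p = 0.0555) without H1299 shcon replicate 2. With shPPP2R2A-1 it was 0.96 ± 0.36 (adjusted p = 0.171).

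CD274 and PDCD1LG2 varied together over the libraries. With each line centred on its own mean, Pearson's r of their log2 CPM was 0.819 over 18 libraries, and that of CD274 with CD47 was 0.725. PDCD1LG2 and CD47 gave 0.599. These libraries share their controls and hairpin groups, so the values describe the same group differences as above. CD274 with CD276, PVR, PVRL2 and NT5E gave between -0.038 and 0.251.

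**Figure D4:**
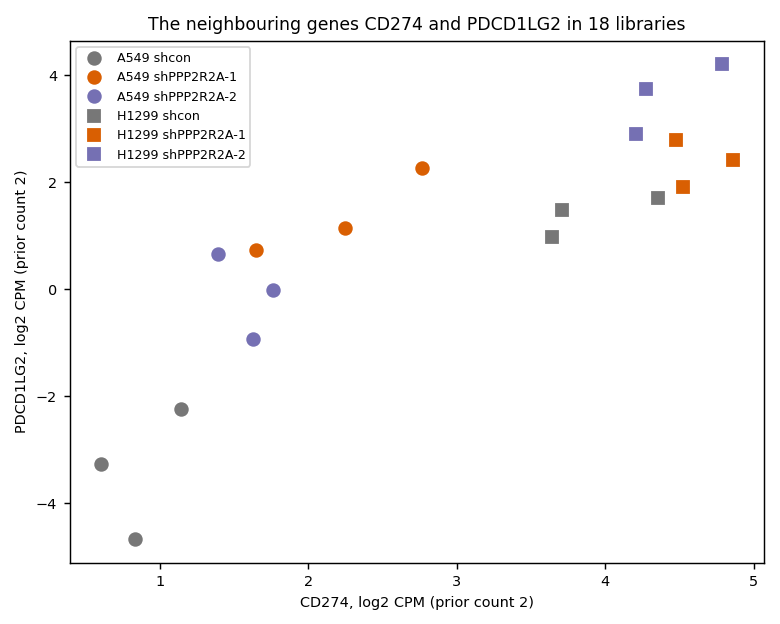
Log2 CPM of CD274 (x axis) and PDCD1LG2 (y axis) in 18 libraries, with a prior count of 2, circles for A549 and squares for H1299. The A549 shcon libraries lie at the lower left and the H1299 knockdown libraries at the upper right, and the line-centred r was 0.819.

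Of the genes flanking this pair on 9p24, PLGRKT lies next to CD274 and RIC1 next to PDCD1LG2. Of 11 listed neighbours 8 were tested in A549. With shPPP2R2A-1 1 fell and none rose, where 6.34% of all genes fell, and with shPPP2R2A-2 2 fell and none rose, where 9.94% fell. PLGRKT, a plasminogen receptor, was at 19.5, 21.8 and 18.5 CPM in A549 shcon and at 12.2, 11.7 and 11.4 CPM with shPPP2R2A-2, a change of -0.74 ± 0.20 (adjusted p = 0.0224). UHRF2, a ubiquitin ligase that reads modified DNA, fell by 0.68 with shPPP2R2A-2 (adjusted p = 0.021), and ERMP1 fell by 0.89 with shPPP2R2A-1 (adjusted p = 0.0498). JAK2, the kinase that carries the interferon-γ signal, lies in the same interval and was not called. In H1299, 6 were tested and none was called.

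Of the B7 family members, CD276 was high in A549 and lower in H1299. A549 had 63.4, 49.0 and 56.6 CPM with shcon, 65.4, 52.5 and 85.2 with shPPP2R2A-1 and 71.3, 72.1 and 93.7 with shPPP2R2A-2. The shPPP2R2A-2 libraries lay above the controls, at 0.50 ± 0.21 on the log2 scale, without passing the test (adjusted p = 0.112). In H1299 the hairpin groups lay on opposite sides of shcon. CD276 stood at 23.5, 22.3 and 20.8 CPM with shcon, at 13.0, 16.0 and 20.5 with shPPP2R2A-1 and at 34.8, 31.2 and 57.0 with shPPP2R2A-2. The 3 groups did not overlap. Against shcon the changes were -0.48 ± 0.25 (adjusted p = 0.302) and 0.82 ± 0.25 (adjusted p = 0.108), and DESeq2 gave the latter an adjusted p of 0.0288. The hairpins themselves differed by 1.30 ± 0.25 (adjusted p = 0.00701).

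VTCN1 was a trace transcript in A549 and had 0 counts in all 9 H1299 libraries. A549 had 0.150, 0.441 and 0.398 CPM with shcon, 1.02, 0.551 and 0.809 with shPPP2R2A-1 and 2.68, 0.983 and 0.767 with shPPP2R2A-2. All knockdown libraries exceeded the controls. The change with shPPP2R2A-2 was 2.16 ± 0.58 (adjusted p = 0.0219), but 1.42 (adjusted p = 0.118) without the A549 shPPP2R2A-2 replicate 1 library, 1.82 (adjusted p = 0.0706) without A549 shcon replicate 1 and 2.31 (adjusted p = 0.0591) without A549 shcon replicate 3. The library that stood apart had the highest VTCN1 level, and the call was lost without any of these 3 libraries. With shPPP2R2A-1 the change was 1.24 ± 0.58 (adjusted p = 0.169).

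Per kilobase, the nectin-family ligands PVR and PVRL2 were among the 3 highest members in all groups. PVR in A549 lay between 152 and 214 CPM in all 9 libraries, and the changes were -0.02 (95% interval -0.37 to 0.33) and -0.10 (-0.45 to 0.26). In H1299 PVR was at 135, 114 and 116 CPM with shcon, 209, 170 and 195 with shPPP2R2A-1 and 131, 132 and 122 with shPPP2R2A-2. Only the shPPP2R2A-1 libraries stood above the controls, at 0.60 ± 0.14 (adjusted p = 0.0464). This call was lost when any of 7 of the 9 H1299 libraries was left out, with changes between 0.54 and 0.67 and adjusted p between 0.0523 and 0.225. A replicate block also ended it (0.60, adjusted p = 0.0548). PVR shares positions with CEACAM19 on the same strand, which had 6936 counts over all libraries beside 146359 for PVR.

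PVRL2 was called in the other line and with the other hairpin. A549 had 75.4, 106 and 89.5 CPM with shcon, 102, 99.8 and 142 with shPPP2R2A-1 and 173, 162 and 156 with shPPP2R2A-2. The shPPP2R2A-2 libraries lay above all other A549 libraries, at 0.87 ± 0.19 (adjusted p = 0.00999), and at 0.84 (adjusted p = 0.0422) without the library that stood apart. With shPPP2R2A-1 the change was 0.34 ± 0.19 (adjusted p = 0.255). In H1299 the values ran from 69.3 to 181 CPM with no separation of the groups, and the changes were 0.03 ± 0.30 and 0.37 ± 0.30, with 1 high library of 181 CPM in the shPPP2R2A-2 group. Compared directly, the A549 hairpin groups differed by 0.53 ± 0.19 (adjusted p = 0.0793). The shPPP2R2A-2 response differed between the lines by 0.42 ± 0.37 (adjusted p = 0.651). Neither difference passed the test, so the PVRL2 change is not shown to be particular to 1 line or hairpin.

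LGALS9 was scarcely expressed. A549 had 0.365, 1.07 and 0.746 CPM with shcon, 0.376, 0.148 and 0.343 with shPPP2R2A-1 and 1.62, 1.45 and 0.570 with shPPP2R2A-2, whereas the H1299 libraries had 0 to 0.082 CPM. Neither change against shcon passed the test, at -1.34 ± 0.58 (adjusted p = 0.141) and 0.75 ± 0.54 (adjusted p = 0.348). The hairpin groups differed by 2.08 ± 0.58 (adjusted p = 0.0283), and by 1.82 (adjusted p = 0.0935) without the A549 shPPP2R2A-2 replicate 1 library. LGALS9 is uncertain, since its near-identical copies LGALS9B and LGALS9C can share its reads. Both copies were tested in A549 and neither was called against shcon.

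CD47 was evenly expressed. A549 had 70.6, 58.3 and 64.5 CPM with shcon, 93.7, 99.7 and 90.1 with shPPP2R2A-1 and 62.7, 68.1 and 64.4 with shPPP2R2A-2. The shPPP2R2A-1 libraries formed a separate, higher group, at 0.55 ± 0.15 (adjusted p = 0.03), while shPPP2R2A-2 left CD47 at 0.02 (95% interval -0.29 to 0.34). The former adjusted p was 0.0681 under a replicate block and 0.0901 without a filter on low counts. It was 0.103 without A549 shcon replicate 3, 0.0588 without A549 shPPP2R2A-1 replicate 1 and 0.0808 without A549 shPPP2R2A-1 replicate 2, with a change of at least 0.51 each time. H1299 had 69.6, 76.3 and 82.2 CPM with shcon, 91.9, 102 and 113 with shPPP2R2A-1 and 99.2, 87.0 and 92.5 with shPPP2R2A-2. No knockdown library overlapped the controls, yet the changes of 0.38 ± 0.14 (adjusted p = 0.179) and 0.23 ± 0.14 (adjusted p = 0.443) did not pass the test.

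SIRPα recognizes CD47 after its N-terminal glutamine has been cyclized, a step carried out by the glutaminyl cyclase QPCTL and in secreted proteins by its relative QPCT. QPCT was at 45.7, 54.7 and 66.2 CPM in A549 shcon and at 123, 125 and 140 CPM with shPPP2R2A-2, a rise of 1.23 ± 0.18 (adjusted p = 0.0014). In H1299 it was at 10.8, 10.5 and 12.1 CPM with shcon and at 33.9, 28.1 and 23.9 with shPPP2R2A-2, a rise of 1.31 ± 0.19 (adjusted p = 0.00834). With shPPP2R2A-1 it was not called in either line. QPCT was the only one of the 4 tested genes of CD47 modification and binding (QPCT, QPCTL, SIRPA, THBS1) called in any comparison with shcon. With shPPP2R2A-2, 10.6% of all genes rose in A549 and 1.37% in H1299.

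NT5E, the CD73 gene, was far more abundant in H1299. A549 had 54.5, 38.4 and 64.8 CPM with shcon, 42.5, 40.6 and 48.4 with shPPP2R2A-1 and 30.9, 39.5 and 85.0 with shPPP2R2A-2, all overlapping. H1299 had 279, 499 and 398 CPM with shcon, 224, 381 and 330 with shPPP2R2A-1 and 962, 923 and 598 with shPPP2R2A-2. The last 3 libraries exceeded all others. The change was 1.01 ± 0.27 (adjusted p = 0.0739) against shcon and 1.40 ± 0.27 (adjusted p = 0.00781) against shPPP2R2A-1. DESeq2 called the first (adjusted p = 0.00818), as did the fit without H1299 shPPP2R2A-2 replicate 3 (1.22, adjusted p = 0.0198).

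Other genes of extracellular adenosine were tested as a list of 15, of which 12 could be tested in A549 and 7 in H1299. Of the 10 that reached the count minimum in both A549 groups, 2 rose and 1 fell with shPPP2R2A-1. Among all genes that reached it in both, 6.69% rose and 6.28% fell. ADORA2B, the low-affinity adenosine receptor, went from 18.8, 16.1 and 19.5 CPM to 35.8, 38.8 and 37.0 CPM, a rise of 1.03 ± 0.20 (adjusted p = 0.00785). ADA, which deaminates adenosine, rose by 0.88 (adjusted p = 0.0395), and ADORA1 fell by 1.53 (adjusted p = 0.0391). The nucleoside carrier SLC28A3 was at 0, 0 and 0.0166 CPM with shcon and at 0.243, 0.339 and 1.35 CPM with shPPP2R2A-1, and the ectonucleotidase ENTPD2 was at 0.623, 3.57 and 2.06 CPM and at 0.155, 0.0848 and 0.172 CPM. Both passed the filter without reaching the minimum in 1 of these groups and are described by their levels alone. With shPPP2R2A-2 only ADORA1 was called, and it fell by 1.81 (adjusted p = 0.0149), where 9.94% of all genes fell. None was called in H1299.

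The hairpins were also compared with each other. In A549, 1 member was higher and 1 lower with shPPP2R2A-2 than with shPPP2R2A-1, where 17.5% of all genes differed in either direction. These were LGALS9 and CD47, whose difference was -0.52 ± 0.15 (adjusted p = 0.0295). Neither was called without the A549 shPPP2R2A-2 replicate 1 library, when the CD47 difference was -0.50 (adjusted p = 0.0915), and over all 10 alternatives LGALS9 passed the test under 6 and CD47 under 5. CD274 differed by -0.68 ± 0.32 (95% interval -1.39 to 0.02) and PDCD1LG2 by -1.51 ± 0.66 (-2.94 to -0.07, adjusted p = 0.135). In H1299, 4 of 7 members differed, where 16.2% of genes did. NT5E, CD276 and PDCD1LG2 were higher with shPPP2R2A-2, the last by 1.29 ± 0.35 (adjusted p = 0.0307), and PVR was lower, at -0.58 ± 0.14 (adjusted p = 0.0171). The CD276 and NT5E differences passed the test under each of 10 alternatives, PVR under 7 and PDCD1LG2 under 5. CD274 differed by -0.19 (95% interval -0.72 to 0.34).

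Whether the lines responded differently was tested by an interaction over all 18 libraries. For the mean of both hairpins no member was called, where 0.181% of 18827 genes were. The closest was PDCD1LG2, whose response was greater in A549 by 2.75 ± 0.80 (edgeR adjusted p = 0.116). PDCD1LG2 and PVR were the only ones of the 9 members with an unadjusted p under 0.05 there. For shPPP2R2A-1 PDCD1LG2 passed the threshold (4.16 ± 0.88, edgeR adjusted p = 0.0287), where 1.09% of genes did. It did so under 12 of 20 alternatives. The A549 side of both PDCD1LG2 differences rests on 12 counts over the shcon libraries. They are therefore read as descriptions, like its fitted changes in A549. For shPPP2R2A-2 no member was called, where 0.643% of genes were, and NT5E was at -1.10 ± 0.45 (adjusted p = 0.291). The CD274 responses differed by 0.74 (95% interval -0.09 to 1.56) for shPPP2R2A-1 and 0.23 (-0.60 to 1.05) for shPPP2R2A-2. VTCN1 and LGALS9 were in this fit and are among the members not called, but with H1299 at or near 0 their fitted differences cannot be read.

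The list of 24 genes taken as regulators of CD274 transcription held interferon receptors, JAKs, STATs, IRFs and subunits of NF-κB and AP-1. Not all of its genes carry signals to the promoter, since it also held SOCS1 and the surface protein CD58. For shPPP2R2A-1, A549 showed 1 of them higher and 2 lower, where 7.34% of all genes rose and 6.34% fell, so the share called was near that of all genes. H1299 showed 1 higher and 1 lower, where 0.808% of all genes rose and 1.93% fell. With shPPP2R2A-2 none was called in either line by edgeR. IRF1, the factor through which interferon-γ induces CD274, went from 22.1, 24.4 and 19.0 CPM to 34.7, 38.7 and 43.5 CPM in A549 with shPPP2R2A-1, a rise of 0.83 ± 0.20 (adjusted p = 0.0191). It was at 26.0, 22.8 and 17.8 CPM with shPPP2R2A-2. IFNAR1, a chain of the type I interferon receptor, fell with shPPP2R2A-1 in A549 from 60.1, 48.6 and 71.0 to 23.9, 19.8 and 7.70 CPM and in H1299 from 61.6, 71.0 and 79.2 to 17.2, 24.5 and 21.8 CPM. The changes were -1.82 ± 0.34 (adjusted p = 0.00752) and -1.79 ± 0.18 (adjusted p = 0.000625). JUN rose in H1299 with shPPP2R2A-1 by 1.51 ± 0.19 (adjusted p = 0.0034).

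Genes that act on PD-L1 after translation were a list of 20. In A549, 0 were higher and 2 lower with shPPP2R2A-1, where 7.34% of all genes rose and 6.34% fell, and 1 was higher and 2 lower with shPPP2R2A-2, where 10.6% rose and 9.94% fell. Over both directions together the list was thus called no more often in A549 than all genes were. H1299 had 1 higher and 1 lower with each hairpin, where 0.808% of all genes rose and 1.93% fell with shPPP2R2A-1 and 1.37% and 1.72% with shPPP2R2A-2. CDK4, which promotes degradation of PD-L1 through SPOP phosphorylation, fell with shPPP2R2A-1 from 302, 243 and 243 to 90.2, 78.0 and 66.7 CPM in A549 and from 410, 294 and 271 to 80.1, 88.3 and 71.2 CPM in H1299. The changes were -1.76 ± 0.17 (adjusted p = 0.000462) and -2.08 ± 0.20 (adjusted p = 0.000606). With shPPP2R2A-2 CDK4 was not called, at -0.36 in A549 (adjusted p = 0.148) and -0.27 in H1299 (adjusted p = 0.501). CUL3, the scaffold of the SPOP ligase, fell with shPPP2R2A-2 by 0.92 in A549 (adjusted p = 0.00397) and by 0.76 in H1299 (adjusted p = 0.0165). With shPPP2R2A-1 CUL3 was not called, at -0.24 in A549 and 0.23 in H1299. ZDHHC9, which palmitoylates PD-L1, rose by 0.88 with shPPP2R2A-2 in A549 (adjusted p = 0.00301) and by 0.75 with shPPP2R2A-1 in H1299 (adjusted p = 0.0421). It was not called with shPPP2R2A-1 in A549 or with shPPP2R2A-2 in H1299. B3GNT3, a glycosyltransferase of PD-L1, fell in A549 with both hairpins, by 1.76 and 0.92 (adjusted p = 0.00187 and 0.0131), and rose by 2.22 with shPPP2R2A-2 in H1299 (adjusted p = 0.0415) from levels under 0.3 CPM.

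Among 27 other genes listed around checkpoint receptors, 20 were tested in A549 and 15 in H1299. The list mixes directions, since it also holds ligands that stimulate lymphocytes, such as TNFSF9, CD70 and ICOSLG. It further holds CD40 and IDO1, which are not ligands, so its counts do not stand for restraint of lymphocytes alone. Of the 18 that reached the count minimum in shcon and knockdown libraries of A549, 2 were higher and 1 lower with shPPP2R2A-1. Among all genes that reached it in both groups, 6.69% rose and 6.28% fell. With shPPP2R2A-2 7 of 18 were higher and 1 lower, where 9.93% of all genes that reached it in both groups rose and 10.2% fell. PVRL4 (nectin-4, a further TIGIT ligand) was at 1.03, 1.02 and 1.28 CPM with shcon, at 4.78, 4.83 and 6.26 with shPPP2R2A-1 and at 4.91, 7.03 and 5.35 with shPPP2R2A-2. It rose by 2.25 ± 0.27 (adjusted p = 0.00147) and 2.39 ± 0.27 (adjusted p = 0.00042), with no overlap. With shPPP2R2A-2 TNFSF9, the 4-1BB ligand, rose by 1.60 (adjusted p = 0.00244) and VISTA (C10orf54 in the table) by 0.83 (adjusted p = 0.00979). TNFRSF14, the ligand of BTLA, did not reach the minimum in shcon and is given by its levels, 0.0859, 0.211 and 0.0331 CPM with shcon and 0.692, 1.22 and 0.942 CPM with shPPP2R2A-2. HMGB1 fell by 1.09 with shPPP2R2A-2 (adjusted p = 0.00495), and CEACAM1 fell by 2.87 with shPPP2R2A-1 (adjusted p = 0.00757), with 1 control library at 6.98 CPM and the others at 32.4 and 28.7. In H1299 none rose and 1 fell, with shPPP2R2A-2, where 1.72% of all genes fell. Of 13 receptors of the 9 ligands, 6 were tested in A549 and 5 in H1299 and none was called against shcon.

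Markers of fibroblasts and endothelium were a list of 9 genes in the table, of which 6 were tested in A549 and 4 in H1299. The first hairpin gave 2 higher and 1 lower in A549, where 7.34% of all genes rose and 6.34% fell, and none called in H1299. The second gave 1 higher and 1 lower in A549, where 10.6% rose and 9.94% fell, and 1 higher in H1299, where 1.37% rose. The summed level of the list was 10.9 to 15.4 CPM in A549 shcon, 19.5 to 40.8 with shPPP2R2A-1 and 31.0 to 37.0 with shPPP2R2A-2, and in H1299 it was 1.39 to 2.93, 1.20 to 2.58 and 5.78 to 8.10 CPM. The A549 sum with shPPP2R2A-2 came mostly from COL1A1, at a mean of 28.4 CPM. This gene, a collagen that carcinoma cells can also express, rose by 1.64 and 2.16 in A549 (adjusted p = 0.0132 and 0.00257) and by 1.71 with shPPP2R2A-2 in H1299 (adjusted p = 0.0419). LUM rose by 1.12 with shPPP2R2A-1 in A549 (adjusted p = 0.0315) and was at or near 0 in H1299, and the endothelial CDH5 fell in A549 by 2.94 and 1.66. Of the 5 leukocyte markers that reached the count minimum in both A549 groups compared, 1 fell and none rose with each hairpin. Among all genes that reached it in both, 6.28% fell with shPPP2R2A-1 and 10.2% with shPPP2R2A-2. The marker that fell was CD14, by 1.26 and 1.06 (adjusted p = 0.0221 and 0.0323). CD8A was not called, at 0.99 and 1.27 (adjusted p = 0.147 and 0.0576). LYZ did not reach the minimum with shPPP2R2A-1. It was at 0.0215, 0.863 and 0.862 CPM with shcon and at 0, 0 and 0.0245 CPM with shPPP2R2A-1. The part of these genes in the ligand changes was not tested.

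Over 12607 genes with a mean of at least 100 counts, those whose line-centred log2 CPM followed CD274 most closely over 18 libraries were STRADB (Pearson's r = 0.896), BTN2A2 (0.890), TMEM50A (0.889), MCEE (0.879) and MORN4 (0.870). PDCD1LG2 was followed most closely by CCDC71L (0.929), RP6-99M1.2 (0.928) and PFKFB4 (0.921). CD276 was followed by FAM131C (0.924), LGALS3BP (0.918) and ETNK2 (0.905), and PVR by IFRD1 (0.881), ISG20L2 (0.871) and RAB12 (0.851). For PVRL2 the closest were LEPRE1 (0.923), HLA-C (0.912) and HYAL3 (0.910), for CD47 IFFO2 (0.896), SLC35G2 (0.886) and SRD5A1 (0.882), and for NT5E THSD4 (0.881), NAV2 (0.852) and EXT2 (0.851). These are the highest of many values over points that share their groups. VTCN1 and LGALS9 fell under the count minimum for this measure.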

How the data were processed

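RNA-Seq was carried out on 18 libraries of A549 and H1299 cells, made with a stranded mRNA kit. The submitters' processing notes list STAR 2.7.3a, Bowtie2, HTSeq 0.11.2, Cufflinks 2.2.1, cutadapt 2.5, FastQC 0.11.8 and DESeq2, and the build GRCh37/hg19, without roles. The authors deposited whole-number counts per gene, used for every result, and a signal that equals these counts divided by 1 size factor per library, which was not used. The members and gene lists were chosen with earlier results of these data known.

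Groups came from the sample titles. edgeR 4.0.16 (R 4.3.3) was run per line: filterByExpr (minimum count 10), TMM, quasi-likelihood test, Benjamini-Hochberg adjustment over all genes, threshold 0.05. Values after ± are SE for log2 fold changes and SD for levels. Interactions and the line difference used 1 fit of all 18 libraries. Named were all 9 members, PPP2R2A, line markers, up to 6 genes per list with the smallest adjusted p, and for each member the 3 most correlated genes (5 for CD274). The scripts were tested on simulated data. Alternatives were RLE size factors, DESeq2 1.42.0, no filter, 1 fit of all libraries, a replicate block and leaving out each library. Gene lengths and promoters came from GRCh38 annotation (GENCODE and RefSeq), of another build than the counts. Some genes of the lists are not reported here.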

Additional observations from a re-analysis of the deposited data

Results flagged for a closer look

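The response of PDCD1LG2 to shPPP2R2A-1 was greater in A549 than in H1299 by 4.16 on the log2 scale in the interaction test (SE 0.88, edgeR adjusted p = 0.0287), with all knockdown libraries above all controls in both lines. It passed the threshold under 12 of 20 alternatives, with adjusted p between 0.0207 and 0.0841. The A549 controls held 12 counts in all, so that this difference rests on those counts and is read as a description.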

How the results depend on the processing

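Over 1028 recomputed values of single members, 974 stayed on their side of the threshold, 45 lost a call, 9 gained one and no called value changed sign. Values near 0 that were not called could change sign, as PVR, NT5E and CD47 did in A549. The number of members higher, as reported 3, 3, 1 and 1 in the order A549 shPPP2R2A-1, A549 shPPP2R2A-2, H1299 shPPP2R2A-1 and H1299 shPPP2R2A-2, was 2 for H1299 shPPP2R2A-1 and 3 for H1299 shPPP2R2A-2 without a filter, 3 for H1299 shPPP2R2A-2 with DESeq2 and 2 with 1 fit of all 18 libraries. Leaving out each library gave 1 to 3, 2 to 4, 0 to 1 and 0 to 2 members higher, and 0 members lower in every case. All genes called (2357, 3533, 437 and 493) became 3604 in A549 shPPP2R2A-1, 1381 in H1299 shPPP2R2A-1 and 1169 in H1299 shPPP2R2A-2 without a filter, and 1353 and 1265 in H1299 with DESeq2. Leaving out each library gave 918 to 2731, 1527 to 4483, 63 to 1095 and 87 to 1217 genes. The log2 fold change of CD274 ranged from 1.10 to 1.67, 0.63 to 0.94, 0.52 to 0.92 and 0.23 to 0.71 over all alternatives.

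With a replicate block, 2, 2, 0 and 1 members were higher and 1619, 2740, 427 and 389 genes were called. Same-numbered libraries correlated above 0.1 in 3 of 9 pairs in A549 and 7 of 9 in H1299. In H1299 the same-numbered pairs ran from -0.43 to 0.40, and pairs with other numbers from -0.48 to 0.44. Whether the numbers pair the samples is not settled by these values, above all in H1299. The main test leaves the numbers out, and the block shows what they change. The block lost the calls of CD47, VTCN1 (1.97, adjusted p = 0.0619) and PVR, and of PDCD1LG2 in the interaction (4.20, adjusted p = 0.0505).

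VTCN1, LGALS9 and PDCD1LG2 in A549 shcon rest on few counts, and a difference there was not detectable below the floor of 3 counts. The counts of calls depended on single libraries in both lines. The cause was not tested.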
